A study of Mus musculus with 2 samples.

Results

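Transcripts of 9 homeobox genes of the TALE class, the Iroquois genes *Irx1*, *Irx2*, *Irx3* and *Irx5*, the MEIS genes *Meis1*, *Meis2* and *Meis3*, and the PBX genes *Pbx2* and *Pbx3*, were compared between primary chondrocytes and primary dermal fibroblasts. They were chosen by name, with earlier results of the same counts known, and make up 9 of the 24421 rows of the deposited count table. The values below therefore describe these genes and are not tests of them. RNA-Seq was performed on 1 library of chondrocytes, released from the rib cartilage of newborn mice with collagenase and kept for no more than 2 passages, and on 1 library of dermal fibroblasts, prepared from the dorsal skin of newborn mice. No genetic change or treatment is given for either library, the strain, the number of mice and the sex are not given, and both cell types were primary preparations rather than sorted cells. The study used the comparison to list genes over 2-fold higher in chondrocytes, under a false discovery rate limit that was not applied here. Among these it sought transcription factors with a binding motif in both of the *Sox9* enhancers that it studied.

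TALE homeodomain proteins carry an extra loop of amino acids between the helices of the DNA-binding domain. PBX and MEIS proteins bind DNA as partners of HOX proteins and of each other, MEIS proteins help to keep PBX proteins in the nucleus, and together they set the identity of segments along the body and limb axes. Iroquois proteins pattern the early embryo, heart, limb and skin without a HOX partner, and their genes lie in clusters, IrxA with *Irx1*, *Irx2* and *Irx4* and IrxB with *Irx3*, *Irx5* and *Irx6*.

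The libraries held 18788599 (chondrocytes) and 17563724 (dermal fibroblasts) counted reads. Levels are given as CPM, reads per 1000000 of the library size after trimmed mean of M-values (TMM) scaling, and a fold is the ratio of the scaled counts with a 95% Clopper-Pearson interval of the split of the reads. This interval covers counting error only. With 1 library per cell type there was no replicate and no test, so differences between animals or between cultures are not covered. Each labelled cell type carried its defining transcripts. All 7 chondrocyte markers analysed (*Sox9*, *Col2a1*, *Acan*, *Col9a1*, *Matn1*, *Hapln1*, *Comp*) were over 2-fold higher in chondrocytes, and 7 of 8 dermal fibroblast markers were over 2-fold higher in dermal fibroblasts, *Lum* being the exception. The chondrocyte library was not free of the latter. The 8 dermal fibroblast markers summed to 6196 CPM there and 47910 CPM in dermal fibroblasts. The 7 chondrocyte markers summed to 97369 CPM in chondrocytes and 20.9 CPM in dermal fibroblasts.

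Of the 9 genes, *Irx1*, *Irx2*, *Irx5* and *Meis3* were over 2-fold higher in dermal fibroblasts, *Irx3*, *Meis2* and *Pbx3* were over 2-fold higher in chondrocytes, and *Meis1* and *Pbx2* lay within 2-fold. All 9 passed the minimum of 10 reads in at least 1 library, as did 14291 genes in all. Of those 14291 genes, 16.2% exceeded 2-fold toward dermal fibroblasts and 11.8% toward chondrocytes. Among the 11162 genes with at least 100 reads in either library, where all 9 genes also stand, the shares were 13.3% and 8.79%. The median log2 fold, chondrocytes over dermal fibroblasts, was 0.22 over the 9 genes and 0.00 over the 14291 genes. The largest differences belonged to the Iroquois family, which held genes of both directions, as did the MEIS family. In bulk RNA, fewer cells of one type and less RNA per cell cannot be told apart.

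**Figure D1:**
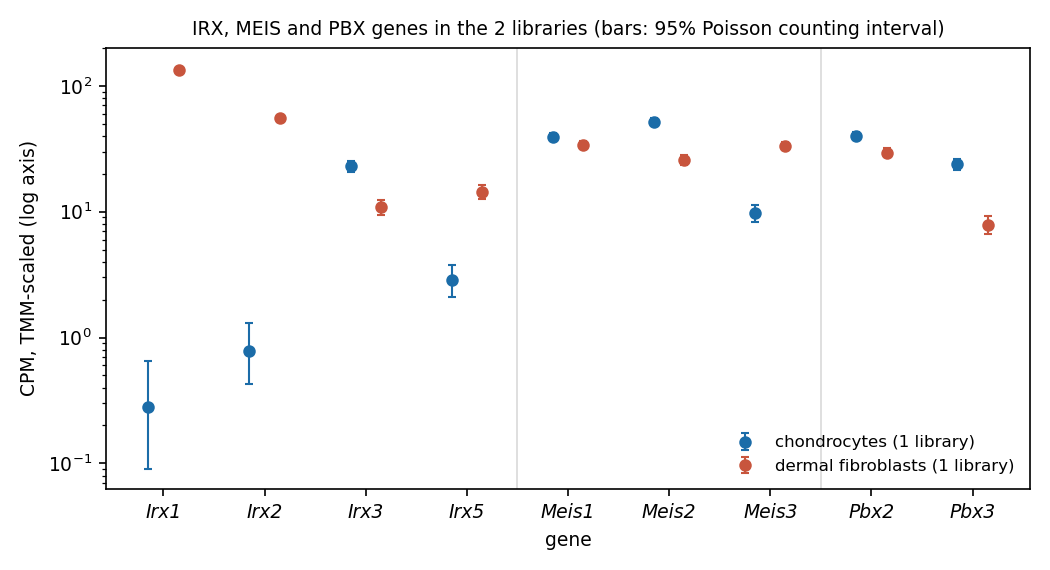
Level of each gene (CPM on a log axis) in the chondrocyte library (blue) and the dermal fibroblast library (red), with bars for the 95% exact Poisson interval of the count. *Irx1* and *Irx2* lie below 1 CPM in chondrocytes and above 50 CPM in dermal fibroblasts, whereas the MEIS and PBX genes lie between 7.82 and 52.0 CPM in both.

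*Irx1* lies on chromosome 13 of GRCm38 (mm10) from 71958232 to 71963723. It had 5 reads in chondrocytes (0.279 CPM) and 2462 reads in dermal fibroblasts (133.7 CPM). Its transcript was therefore close to undetected in chondrocytes and, per length, was the highest of the 9 genes in dermal fibroblasts. The difference was 479-fold in favor of dermal fibroblasts, with a counting interval from 205 to 1478, and it had rank 3 of the 14291 genes in that direction with counts under 3 set to 3, a floor that sets the place of genes with 0 to 2 chondrocyte reads. The width of the interval comes from the 5 chondrocyte reads.

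*Irx2*, the next gene of the IrxA cluster (chromosome 13, 72624430 to 72634196), had 14 reads in chondrocytes (0.781 CPM) and 1017 reads in dermal fibroblasts (55.2 CPM). It exceeded the chondrocyte level 70.7-fold in dermal fibroblasts (interval 42.0 to 129.8), in the same direction as *Irx1*. The third gene of this cluster, *Irx4*, which is best known from the heart ventricle, had 0 and 2 reads, too few for a fold. Between the 2 expressed genes of the cluster, dermal fibroblasts held 2.42 reads of *Irx1* for each read of *Irx2* (interval 2.25 to 2.61), whereas chondrocytes held 0.357 (interval 0.101 to 1.05).

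The IrxB cluster on chromosome 8 differed within itself. *Irx3* (91798511 to 91801654) had 411 reads in chondrocytes (22.9 CPM) and 199 reads in dermal fibroblasts (10.8 CPM) and stood 2.12-fold higher in the former (interval 1.79 to 2.53). It was the only Iroquois gene of the 4 with more transcript in chondrocytes, but its interval reached below 2-fold and its fold was 1.93 when the libraries were scaled by total counts. *Irx5* (92357796 to 92361456) had 51 reads in chondrocytes (2.85 CPM) and 265 reads in dermal fibroblasts (14.4 CPM) and stood 5.06-fold higher in the latter (interval 3.74 to 6.97). The neighbors thus went in opposite directions. The third gene of the cluster, *Irx6*, had 0 and 2 reads.

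As the scaling between libraries cancels within a library, the makeup of the family was also compared. Of the 481 Iroquois reads in chondrocytes, 85.4% came from *Irx3* (interval 82.0 to 88.5), 10.6% from *Irx5*, 2.91% from *Irx2* and 1.04% from *Irx1* (interval 0.338 to 2.41). Of the 3947 Iroquois reads in dermal fibroblasts, 62.4% came from *Irx1* (interval 60.8 to 63.9), 25.8% from *Irx2*, 6.71% from *Irx5* and 5.04% from *Irx3* (interval 4.38 to 5.77). Per length of annotated exon, *Irx3* made up 86.3% of the family in chondrocytes and *Irx1* made up 70.3% in dermal fibroblasts, so the leading Iroquois transcript differed between the libraries. Dermal fibroblasts held 12.4 reads of *Irx1* for each read of *Irx3* (interval 10.7 to 14.4), and chondrocytes held 0.0122 (interval 0.00393 to 0.0286). The ratio changed 1017-fold, a value that rests on 5 *Irx1* reads in chondrocytes. All Iroquois genes together gave 26.8 CPM in chondrocytes and 214 CPM in dermal fibroblasts, and the libraries differed 7.99-fold (interval 7.27 to 8.80).

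**Figure D2:**
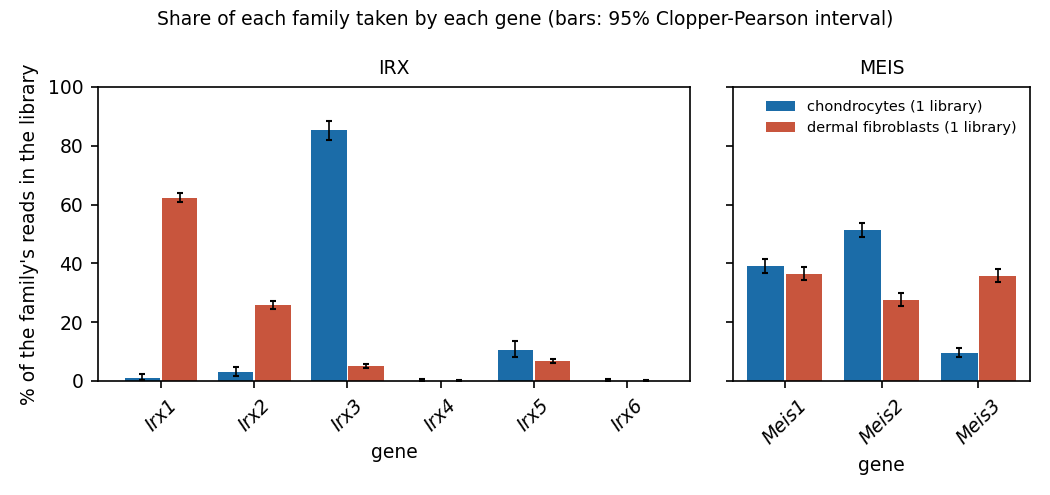
Share of each family's reads (%) taken by each gene in the chondrocyte library (blue) and the dermal fibroblast library (red), with bars for the 95% Clopper-Pearson interval. *Irx3* takes 85.4% of the Iroquois reads in chondrocytes and 5.04% in dermal fibroblasts, and *Meis3* takes 9.59% and 35.8% of the MEIS reads.

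The genes beside the clusters were examined as a list named from their position. Of 7 genes beside IrxA, 2 were over 2-fold higher in chondrocytes, 1 was over 2-fold higher in dermal fibroblasts and 4 lay within 2-fold. *Ice1* (1464 and 2006 reads) and *Ndufs6* (707 and 685 reads) were within 2-fold, and *Lpcat1*, a phospholipid acyltransferase gene, was 3.59-fold higher in chondrocytes (915 and 262 reads). The gene higher in dermal fibroblasts was *Adamts16*, a metalloproteinase gene and the listed gene nearest to *Irx1* on its side of the cluster, with 5 and 28 reads and a 5.45-fold difference (named after its values were seen). Beside IrxB, *Fto* (2075 and 1388 reads) and *Rpgrip1l* (194 and 167 reads) were within 2-fold. *Mmp2*, which codes for a gelatinase, was 2.96-fold higher in dermal fibroblasts (4951 and 15032 reads). The IrxB list of 6 genes had 5 over the read minimum, of which 1 was over 2-fold higher in each library. Among these listed neighbors, *Adamts16* differed the most, by less than *Irx1* and *Irx2* did.

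The long noncoding RNA gene *Gm20554*, named after its values were seen, begins 256 bp from the RefSeq start of *Irx2* on the opposite strand. It had 2 reads in chondrocytes and 280 in dermal fibroblasts, a ratio of 136 in the direction of *Irx2* (interval 37.4 to 1131) from the reads as counted and of 90.9 with the chondrocyte reads set to 3. Its annotated span shares 4135 bp with that of *Irx2*, and the strand setting of the counting is not stated, so reads of the pair may have been split between them. *Crnde*, the noncoding RNA gene 1675 bp before *Irx5*, had 20 and 17 reads, a fold of 1.21 (interval 0.601 to 2.46), and did not share the direction of *Irx5*.

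**Figure D3:**
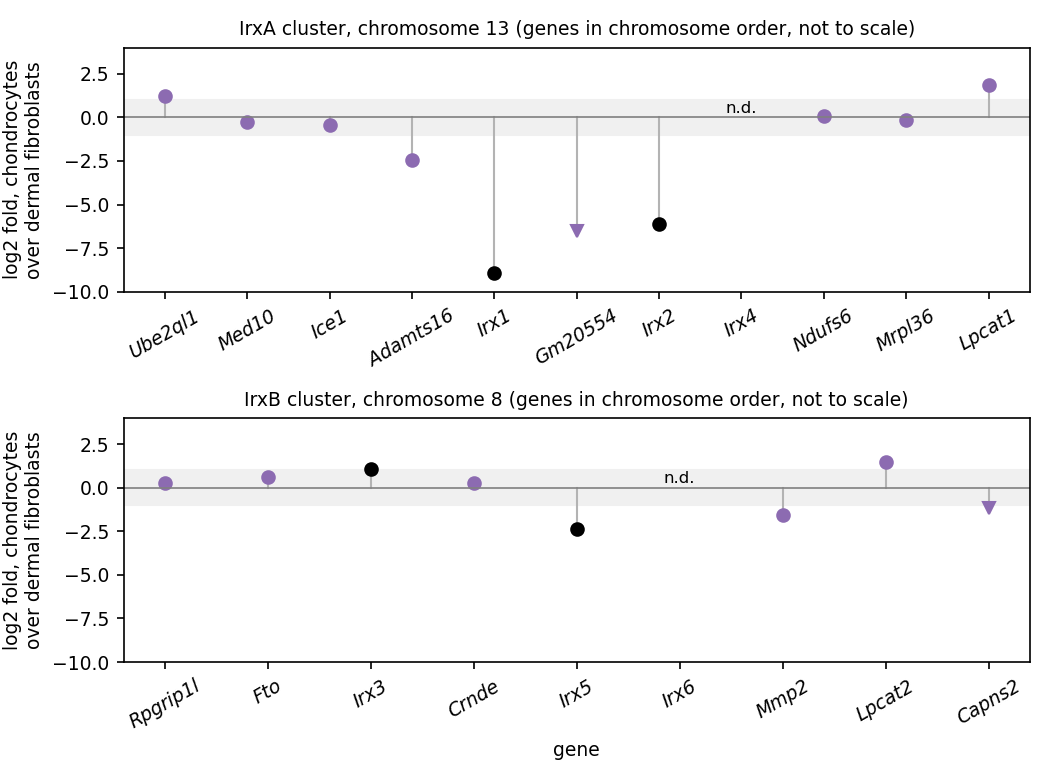
Log2 fold (chondrocytes over dermal fibroblasts) of the Iroquois genes (black) and their neighbors (purple) in chromosome order, with the band within 2-fold in gray. Triangles mark genes with at most 3 reads in chondrocytes, whose value was set against 3 reads, and n.d. marks genes with at most 3 reads in both libraries. *Irx1*, *Gm20554* and *Irx2* lie below -6, and the other neighbors lie between -2.45 and 1.84.

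The stretch between the starts of *Irx2* and *Gm20554* is shown together with the matching stretch of *Irx3*, since these Iroquois genes had opposite directions, and those of *Meis2* and *Meis3*, the MEIS pair of opposite directions. Each sequence runs from base -250 to base -71 before the RefSeq start (GRCm38.p6), 5′ to 3′ on the strand of the gene, and ends before any exon that GENCODE vM1 gives these genes near that start. The windows of *Irx2*, *Meis2* and *Meis3* lie within the longest annotated span of their gene, and that of *Irx3* lies outside it. Capitals mark CpG dinucleotides.
Irx2, chr13:72628570-72628749 plus strand: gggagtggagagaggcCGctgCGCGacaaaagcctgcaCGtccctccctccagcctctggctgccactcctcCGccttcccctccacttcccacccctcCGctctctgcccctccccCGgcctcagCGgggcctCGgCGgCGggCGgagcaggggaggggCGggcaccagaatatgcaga
Irx3, chr8:91801725-91801904 minus strand: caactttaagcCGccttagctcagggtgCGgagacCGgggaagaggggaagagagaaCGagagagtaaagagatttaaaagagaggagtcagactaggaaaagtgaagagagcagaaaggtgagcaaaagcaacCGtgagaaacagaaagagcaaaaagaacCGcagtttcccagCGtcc
Meis2, chr2:116064690-116064869 minus strand: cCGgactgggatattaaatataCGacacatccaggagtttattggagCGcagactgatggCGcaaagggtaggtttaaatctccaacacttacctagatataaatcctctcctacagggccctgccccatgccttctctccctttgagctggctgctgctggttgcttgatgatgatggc
Meis3, chr7:16175145-16175324 plus strand: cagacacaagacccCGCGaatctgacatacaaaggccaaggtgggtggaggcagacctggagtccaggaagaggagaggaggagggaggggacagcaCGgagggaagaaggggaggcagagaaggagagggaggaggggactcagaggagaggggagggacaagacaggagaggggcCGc

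RefSeq windows were at hand for 6 of the 9 genes (*Irx2*, *Irx3*, *Meis1*, *Meis2*, *Meis3*, *Pbx2*). In the 250 bases before the start, the GC content was 68.4% for *Irx2*, 56.0% for *Irx3*, 47.6% for *Meis2*, 63.6% for *Meis3*, 59.6% for *Meis1* and 77.6% for *Pbx2*, against a median of 52.4% over 32851 windows. The ratio of observed to expected CpG was between 0.497 (*Meis2*) and 0.903 (*Pbx2*), and the median over all windows was 0.374. All 6 windows were above that median for CpG, while the GC content of *Meis2* was below its median. The letters of a MEIS site (TGACAG), a PBX-HOX site (TGATTNAT) and an IRX site (ACANNTGT), searched on both strands, were in 0 of the 6 windows and in 15.9%, 2.82% and 6.31% of all windows. A SOX core (ACAAT) was found in *Meis1* only (27.7% of all windows), and TATAAA in *Meis2* only (12.4% of all windows), at base -152.

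Among the MEIS genes, *Meis1* (chromosome 11, 18880428 to 19019651), a cofactor best known from blood stem cells and limb patterning, had 709 reads in chondrocytes (39.6 CPM) and 626 reads in dermal fibroblasts (34.0 CPM). The fold was 1.16 (interval 1.04 to 1.30), and the gene lay within 2-fold. *Meis2* (chromosome 2, 115861264 to 116067537), which acts in limb, cranial neural crest and heart development, had 932 reads in chondrocytes (52.0 CPM) and 474 reads in dermal fibroblasts (25.7 CPM). It was 2.02-fold higher in chondrocytes (interval 1.81 to 2.26), a value that falls on either side of 2-fold with the scaling (1.99 with DESeq2 size factors and 1.84 with total counts). *Meis3* (chromosome 7, 16174012 to 16186510), a regulator of hindbrain patterning, had 174 reads in chondrocytes (9.71 CPM) and 614 reads in dermal fibroblasts (33.4 CPM) and stood 3.44-fold higher in the latter (interval 2.90 to 4.09).

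The MEIS family differed in makeup more than in sum. Its reads added to 101 CPM in chondrocytes and 93.1 CPM in dermal fibroblasts, with a ratio of 1.09 (interval 1.02 to 1.16). *Meis2* took 51.3% of these reads in chondrocytes and 27.7% in dermal fibroblasts, whereas *Meis3* took 9.59% and 35.8% and *Meis1* took 39.1% and 36.5%. Chondrocytes held 5.36 reads of *Meis2* for each read of *Meis3* (interval 4.55 to 6.33), and dermal fibroblasts held 0.772 (interval 0.683 to 0.872). Per length of annotated exon, *Meis1*, *Meis2* and *Meis3* made up 35.5%, 29.1% and 35.4% of the family in chondrocytes, and 18.3%, 8.64% and 73.0% in dermal fibroblasts. *Meis3* thus led the family per length in dermal fibroblasts, while it stood beside *Meis1* in chondrocytes. This order depends on annotated exon lengths of 7394 bp (*Meis1*), 11872 bp (*Meis2*) and 1820 bp (*Meis3*). These lengths count all isoforms, so the per-length shares of *Meis1* and *Meis2* may be too low.

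Of the PBX genes, *Pbx2* (chromosome 17, 34592259 to 34597400), which is expressed broadly, had 716 reads in chondrocytes (39.9 CPM) and 543 reads in dermal fibroblasts (29.5 CPM), with a fold of 1.35 (interval 1.21 to 1.52). *Pbx3* (chromosome 2, 34171457 to 34372045), a HOX cofactor with roles in the nervous system and limb, had 427 reads in chondrocytes (23.8 CPM) and 144 reads in dermal fibroblasts (7.82 CPM). It was 3.05-fold higher in chondrocytes (interval 2.52 to 3.70). Among the 3 genes higher in chondrocytes, it alone had an interval wholly above 2-fold, and all 4 genes higher in dermal fibroblasts had one. Chondrocytes held 0.596 reads of *Pbx3* for each read of *Pbx2* (interval 0.528 to 0.673), and dermal fibroblasts held 0.265 (interval 0.219 to 0.319). This ratio, which does not depend on the scaling, differed 2.25-fold between the libraries.

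**Figure D4:**
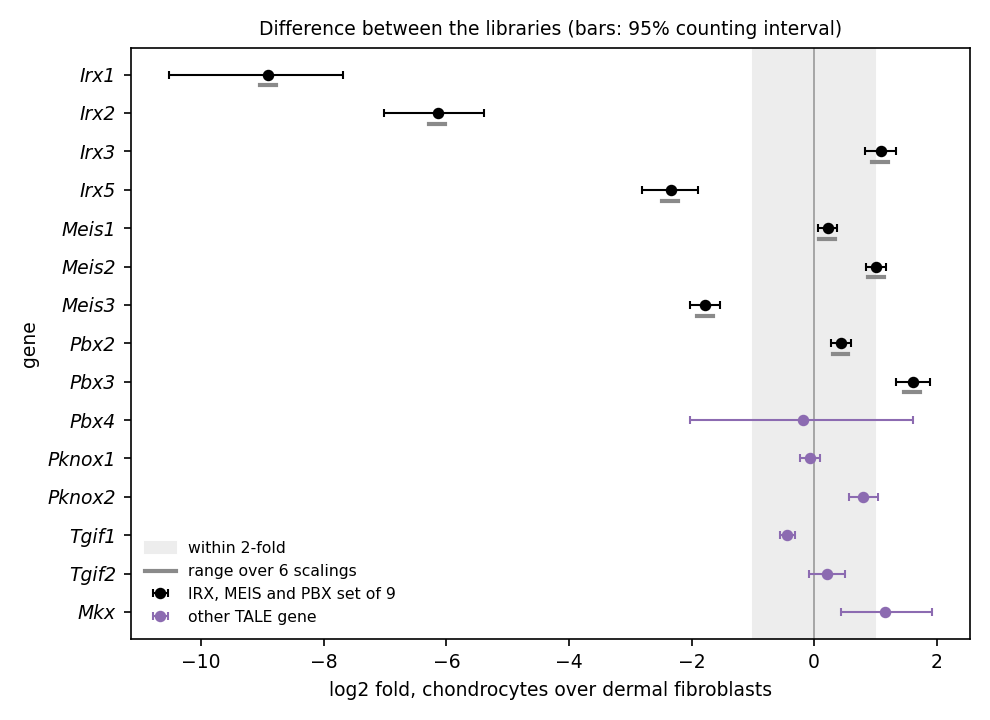
Log2 fold (chondrocytes over dermal fibroblasts) of the 9 genes (black) and of other TALE genes (purple), with bars for the 95% counting interval, short gray lines for the range over 6 scalings and a gray band within 2-fold. *Irx1*, *Irx2*, *Irx5* and *Meis3* lie wholly left of the band and *Pbx3* lies right of it, while the intervals of *Irx3* and *Meis2* cross its right edge.

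Other TALE genes were taken as a list of 8. Over the read minimum were 5 of them, of which 1 was over 2-fold higher in chondrocytes, 0 were over 2-fold higher in dermal fibroblasts and 4 lay within 2-fold, with a median log2 fold of 0.21. *Mkx*, the tendon regulator Mohawk, had 52 and 24 reads in chondrocytes and dermal fibroblasts, a fold of 2.23 (interval 1.35 to 3.77). *Pknox1*, which codes for the PBX partner PREP1, had 588 and 631 reads and a fold of 0.957. *Pknox2* had 403 and 237 reads, a fold of 1.75 (interval 1.48 to 2.06). The TGIF genes code for transcriptional repressors, and *Tgif1* had 987 and 1371 reads (fold 0.739) while *Tgif2* had 204 and 181 (fold 1.16). *Pbx4* had 6 and 7 reads.

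Levels were compared between genes per kilobase of annotated exon (GENCODE vM1), which counts all isoforms and so understates genes with long alternative exons such as *Meis2*. In chondrocytes, *Pbx2* (11.0 CPM per kb) and *Irx3* (9.78) stood highest of the 9 genes, with overlapping counting intervals. *Meis1* (5.35), *Meis3* (5.33), *Meis2* (4.38) and *Pbx3* (3.72) followed, and each overlapped the next except *Meis2* and *Pbx3*. *Irx5* (1.19) was lower, and *Irx2* (0.236) and *Irx1* (0.135) stood lowest and overlapped. In dermal fibroblasts, *Irx1* (64.9 CPM per kb) stood highest, above 94.2% of the genes with a length, followed by *Meis3* (18.3) and *Irx2* (16.7), which overlapped. *Pbx2* (8.10) and *Irx5* (6.0) came next, *Irx3* (4.61) and *Meis1* (4.60) overlapped, and *Meis2* (2.17) and *Pbx3* (1.22) were lowest. *Irx1* thus stood at the top of the order in dermal fibroblasts and, with *Irx2*, at the bottom in chondrocytes.

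**Figure D5:**
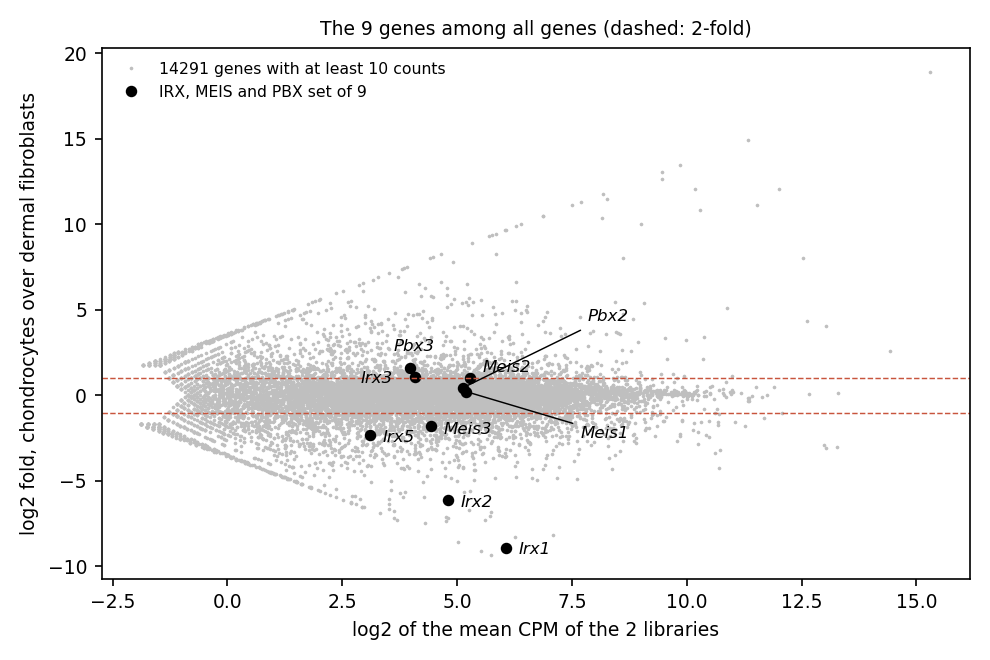
Log2 fold (chondrocytes over dermal fibroblasts) against log2 of the mean CPM for the 14291 genes with at least 10 reads in either library (gray) and the 9 genes (black), with dashed lines at 2-fold. *Irx1* and *Irx2* lie near the lower edge of the cloud, and *Meis1* and *Pbx2* lie between the dashed lines.

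The HOX genes, the DNA-binding partners of PBX and MEIS, were listed by cluster. Of 39 HOX genes, 30 passed the read minimum, 7 were over 2-fold higher in chondrocytes, 16 were over 2-fold higher in dermal fibroblasts and 7 lay within 2-fold, with a median log2 fold of -1.15. All 7 higher in chondrocytes were Hoxa genes, but the Hoxa cluster was split. Of its 9 genes over the read minimum, the other 2 were over 2-fold higher in dermal fibroblasts. Among HOX genes with at least 100 reads in either library, the largest folds in chondrocytes were those of *Hoxa5* (26.7-fold, 599 and 23 reads), *Hoxa3* (22.2-fold) and *Hoxa2* (17.2-fold). Under the same minimum, the largest in dermal fibroblasts were those of *Hoxc10* (67.5-fold, 6 and 416 reads), *Hoxd3* (45.3-fold) and *Hoxd4* (21.3-fold). All 6 Hoxd genes with at least 10 reads in either library were over 2-fold higher in dermal fibroblasts. Of these, *Hoxd11* (0 and 10 reads) and *Hoxd10* (0 and 11 reads) had their chondrocyte reads set to 3. Each Hox cluster other than Hoxa held 0 genes over 2-fold higher in chondrocytes. Among other proteins that bind PBX, *Pbxip1* had 2435 and 2423 reads (fold 1.03), *Myod1*, the myogenic regulator, was 4.82-fold higher in chondrocytes (2328 and 496 reads), and *En1*, a regulator of dorsal dermis, was 9.53-fold higher in dermal fibroblasts (58 and 568 reads).

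The genes of at least 100 reads with a log2 fold nearest to that of *Irx1* over these 2 libraries were the keratin genes *Krt5* (1 and 1693 reads) and *Krt6a* (0 and 1189 reads), with counts under 3 set to 3. Those nearest to *Pbx3* were *Creb3l2* (4014 and 1352 reads, 3.05-fold) and *Usp6nl* (1183 and 398 reads, 3.05-fold). Markers of other cell types also differed between the libraries. Of 8 keratinocyte markers, 5 of the 7 over the read minimum were over 2-fold higher in dermal fibroblasts, their sum was 9.09 CPM in chondrocytes and 257 CPM in dermal fibroblasts, and 0 of the 8 were at 0 in either library. Most of their reads were those of *Krt14* (17 and 1939 reads), *Krt5* and *Dsp* (27 and 722 reads). The sums were 9.76 and 53.8 CPM for 5 melanocyte markers (4 over 2-fold higher in dermal fibroblasts, *Dct* at 0 in chondrocytes), 13.6 and 40.7 CPM for 5 endothelial markers (4 higher there), 25.4 and 57.1 CPM for 5 dermal papilla markers (3 higher there) and 47.6 and 77.9 CPM for 5 macrophage markers (1 higher there). They were 1737 and 1262 CPM for 8 skeletal muscle markers (4 over 2-fold higher in chondrocytes), and 162 and 49.5 CPM for 5 Schwann cell markers, most of it *S100b*, a gene that cartilage also expresses. The part of these cells in the Iroquois, MEIS and PBX differences was not tested.

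Annotated overlaps touched 6 of the 9 genes, *Irx2* with *Gm20554* among them. The spans of *Pbx2* and *Gpsm3* (72 and 119 reads) share 489 bp on the same strand in GENCODE vM1. Genes on the opposite strand overlap *Irx3*, *Meis1* and *Pbx3* in that annotation, and another gene overlaps *Meis2* in RefSeq. Their reads were not analysed here.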

How the data were processed

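Reads of stranded mRNA libraries (75 bp, single-end) were base-called with CASAVA 1.8.2 and mapped to mm10 with TopHat2 2.0.13, Bowtie2 2.2.3 and SAMtools 0.1.19, per the submitters' processing notes. The table that the authors deposited holds raw counts (whole numbers, unscaled), 1 row for each symbol but for 2 repeated symbols. The counting program, its annotation and strand setting are not given in the sources used here. Of the 24421 rows, 27 carry a date as symbol; none is named here.

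Counts were scaled with TMM (edgeR 4.0.16, R 4.3.3), with factors of 0.954 for chondrocytes and 1.05 for dermal fibroblasts. For folds, a floor of 3 reads was applied to each library, and genes needed at least 10 reads in either library. Folds and intervals came from scripts in Python 3.11.15 (scipy 1.17.1, numpy 2.4.6, pandas 2.3.3; plots with matplotlib 3.10.9), and the calculation was tested on simulated data. No p-value is given, since each group had 1 library. Reads carried no molecular identifiers and are not independent molecules, so intervals cover counting error only. Alternatives were other scalings, DESeq2 1.42.0 size factors among them, floors, a pseudocount, filters and thresholds. The genes and lists were chosen with earlier results of these data known. Named were all 9 genes, 8 other TALE genes (1 more of that list is not reported here), the 3 largest HOX folds in each direction among genes with at least 100 reads in either library, the 3 members with the most reads of the partner and neighbor lists, and the 2 nearest folds. Marker lists (chondrocyte, dermal fibroblast, keratinocyte, skeletal muscle, endothelial, macrophage, Schwann cell, melanocyte, dermal papilla) are given mainly as counts and sums, and *Gm20554*, *Adamts16* and *Crnde* were named after their values were seen. Positions and sequences are RefSeq's (GRCm38.p6), in which all 9 symbols matched. Exon lengths (GENCODE vM1, another build) named 92.2% of the genes over the minimum.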

Additional observations from a re-analysis of the deposited data

How the results depend on the processing

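The 9 log2 folds were recomputed under 8 alternatives (5 scalings, floors of 1 and 10 reads, and a pseudocount of 1). Of these 72 values, 0 left the counting interval and 0 changed direction. Each scaling moved all log2 folds by the same amount, between -0.14 and 0.12, and the smallest log2 fold in size was 0.22 (*Meis1*). With these shifts, no scaling could change a direction. The floors could move few of the 72 values. All 9 genes had over 3 reads in each library, so the floor of 1 read changed none, and the floor of 10 reads changed only *Irx1*. *Irx1* ranged from 239.7-fold (floor of 10 reads) to 527-fold (total counts) higher in dermal fibroblasts, and that floor raises its 5 chondrocyte reads to 10. The number of the 9 genes over 2-fold higher in dermal fibroblasts was 4 under each scaling, floor and filter, and 3 with a fold over 4, which *Meis3* does not reach. The number higher in chondrocytes was 3, and it was 1 with total counts (*Pbx3*; *Irx3* was then at 1.93 and *Meis2* at 1.84), 2 with DESeq2 size factors, 0 with a fold over 4, and 1 with the lower bound of the interval over 2. Relative to TMM, total counts moved all log2 folds by -0.14 and *Actb* scaling by 0.12. Over all genes, 1684 were higher in chondrocytes and 2319 in dermal fibroblasts. These numbers were 981 and 1485 with at least 100 reads, 713 and 929 with a fold over 4, and 1031 and 1546 with the lower bound over 2, each a stricter rule that removes genes by construction. No paired analysis was possible because there was 1 library in each group. Depth limits *Irx1* and *Irx2* in chondrocytes (5 and 14 reads) and leaves *Irx4* and *Irx6* without a fold.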
